A study of Mus musculus with 6 samples.

Results

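The genes described here are those of 9 Toll-like receptors and of Cd14, a co-receptor of TLR4, in cultured mouse microglia that carry or lack Plcg2. Members were the rows of the deposited table whose symbol was Tlr1, Tlr2, Tlr3, Tlr4, Tlr6, Tlr7, Tlr8, Tlr9, Tlr13 or Cd14. They are 10 of 54347 gene rows, each symbol stood on 1 row, and all 10 passed the filter of a mean of at least 1 TPM. TPM is a gene's share of all transcripts, scaled to a fixed total and corrected for transcript length, so levels of different genes can be set side by side. Cells came from forebrains of C57BL/6 pups 2 to 3 days old, with 3 libraries of Plcg2+/+ cells and 3 of cells from Plcg2-/- littermates. The genotype is that of the whole animal, so astrocytes of the same mixed glial flask share it, and no inducible allele or drug is named. All cells of both genotypes grew with GM-CSF, a myeloid growth factor, at 5 ng/mL in 10% serum. They were shaken off on day 12 to 13 and rested at least 72 h with 0.5 ng/mL GM-CSF and 1% serum, with no receptor ligand named. The labels do not say whether replicates are separate animals or cultures, so p-values reflect only how far these libraries spread, and that spread may be technical.

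Toll-like receptors recognise molecules of microbes and of damaged cells and signal through adaptor proteins to NF-kappaB and interferon regulatory factors. TLR1, TLR2, TLR4 and TLR6 act at the cell surface. TLR2 pairs with TLR1 or TLR6 to bind bacterial lipopeptides. TLR4 binds lipopolysaccharide with the help of CD14, which also carries TLR4 into endosomes by a route in which Syk and PLCG2, the phospholipase deleted here, have been placed. TLR3, TLR7, TLR8, TLR9 and TLR13 sit in endosomes, to which the chaperone UNC93B1 delivers them, and bind nucleic acids. Microglia, the resident macrophages of the brain, are known to express many of these receptors.

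The targeted gene was checked first. Plcg2 stood at 45.2, 39.7 and 54.9 TPM in Plcg2+/+ libraries 1 to 3 and at 16.05, 16.7 and 16.1 TPM in the Plcg2-/- libraries, a log2 difference of -1.45 ± 0.14 (SE; limma, adjusted p = 0.00141). Transcript thus remained in all 3 Plcg2-/- libraries, and the sources used here do not say which exons the allele lacks. The labels give no sex, and libraries differed in sex-linked transcripts. The summed level of 4 Y-linked genes was 0.371, 107 and 112 TPM in the Plcg2+/+ and 58.6, 0.783 and 0.994 TPM in the Plcg2-/- libraries, while Xist stood at 50.5, 0.747 and 1.02 against 18.4, 49.4 and 40.2 TPM. Plcg2-/- 1 held both kinds of transcript. Mitochondrially encoded genes took 13.6% to 17.3% of TPM in Plcg2+/+ and 5.00% to 8.68% in Plcg2-/- libraries. With TPM rescaled without these genes the all-gene median difference between genotypes went from 0.19 to 0.069 on the log2 scale, and of the members only Tlr8 changed its call (limma, adjusted p = 0.0940). Of 14 microglial markers 11 had a mean of at least 1 TPM, with a summed level of 3075 to 5150 TPM in Plcg2+/+ and 2824 to 4885 TPM in Plcg2-/- libraries. The list split, with P2ry12, P2ry13, Aif1 and Fcrls called higher in Plcg2-/- libraries and Itgam, Trem2 and Cx3cr1 lower. Itgam went from 429 ± 76.5 to 81.8 ± 15.9 TPM and P2ry13 from 28.5 ± 13.6 to 137 ± 5.62 TPM (SD, n = 3). The defining markers Siglech and Sall1 were below 1 TPM in all 6 libraries, Tmem119 lay between 0.0978 and 1.47 TPM, and Cx3cr1 between 0.0763 and 2.92 TPM. Among markers of other cells, 3 of 6 genes of border macrophages had a mean of at least 1 TPM and summed to 181 to 283 TPM in Plcg2+/+ and 376 to 606 TPM in Plcg2-/- libraries, with Cd163, Lyve1 and F13a1 below 1 TPM throughout. The 5 B cell markers were below 1 TPM in every library. So were Flt3, Zbtb46, Xcr1 and Cd209a of the dendritic cell list, while Ccr7 of that list lay between 0.106 and 3.55 TPM. Summed levels of the 5 monocyte markers overlapped, at 21.5 to 236 against 81.1 to 251 TPM. So did those of 7 neutrophil markers, at 19.5 to 74.98 against 24.4 to 47.3 TPM. Sums of 9 oligodendrocyte lineage markers also overlapped, at 56.9 to 123 against 56.05 to 93.5 TPM, though Cspg4 was called lower. Sums of 9 astrocyte markers did not overlap, at 14.6 to 22.2 against 29.6 to 41.1 TPM. The largest part of them was Aldh1l1, at 12.3 ± 3.43 and 28.3 ± 8.65 TPM (SD, n = 3), which was called higher. The other 2 tested astrocyte markers overlapped between genotypes, with means of 2.95 and 2.24 TPM for Gfap and 1.81 and 2.35 TPM for S100b. Of 5 endothelial markers only Flt1 was tested, and it was called lower. The part of these markers in the results was not tested. In such bulk samples fewer cells of a type and less RNA per cell cannot be told apart.

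Differences below are Plcg2-/- minus Plcg2+/+ on the scale of log2(TPM + 1), with a gene called when limma's adjusted p over all 12652 genes tested was below 0.05. Of the 10 members, 6 were called higher in Plcg2-/- microglia and 1 was called lower, where 15.6% of all tested genes were called higher and 5.31% lower. The 6 were Tlr1, Tlr3, Tlr4, Tlr7, Tlr8 and Tlr9, and the 1 lower was Cd14. For 8 members all 3 Plcg2-/- values lay above all 3 Plcg2+/+ values, a pattern seen in 32.4% of tested genes, and for 2 members, Cd14 and Tlr13, all lay below, as in 10.9% of tested genes. The median difference of the members was 1.03, against 0.19 over all tested genes. With libraries rescaled by median-of-ratios factors the all-gene median became -0.0045, and over all genes 975 were called higher and 993 lower in place of 1971 and 672. Under that scaling 5 members were called higher and 1 lower. Leaving out Plcg2-/- 1, the library with both kinds of sex-linked transcript, left 4 members higher and 1 lower. In that fit 7 members were higher and 1 lower at an unadjusted limma p under 0.05. Of all 12652 tested genes, 2521 were higher and 876 lower at that threshold. Leaving out both libraries numbered 1 left 0 members called higher and 0 called lower with limma. There 6 members higher and 1 lower had an unadjusted p under 0.05, beside 1786 higher and 714 lower of all 12652 tested genes.

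**Figure D1:**
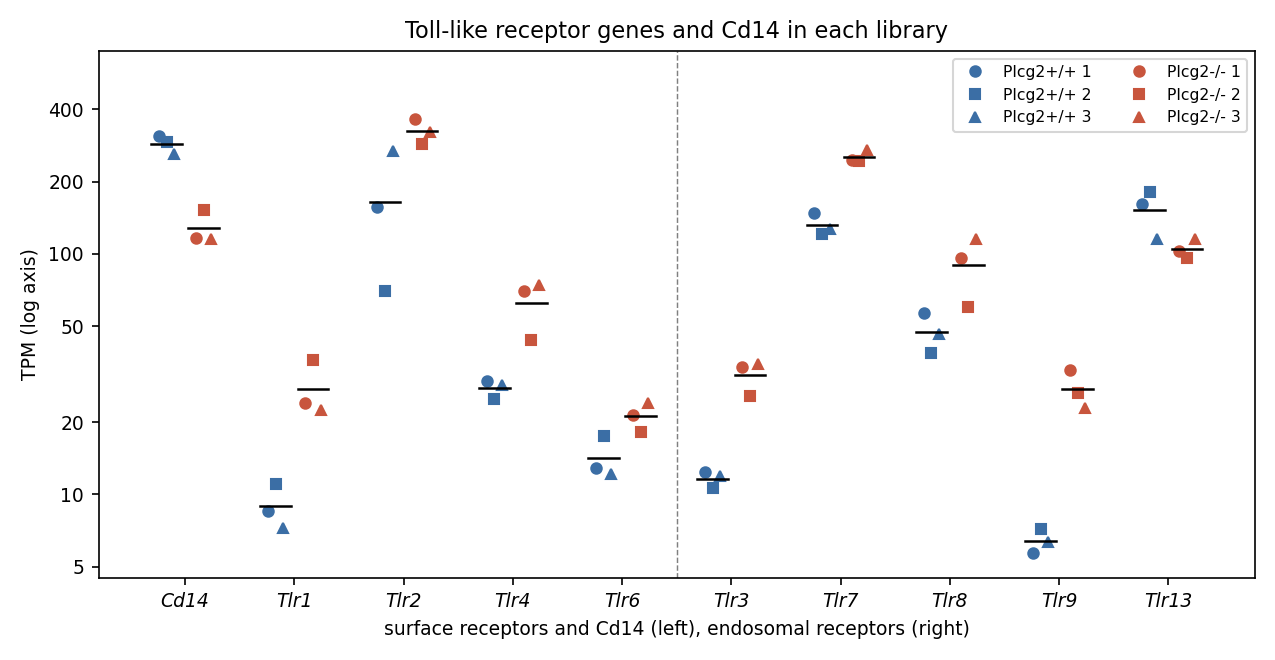
TPM of each member (log axis) in the 3 Plcg2+/+ (blue) and 3 Plcg2-/- libraries (red); marker shape gives the replicate number and black lines the group means. Red points lie above blue ones for 8 members and below for Cd14 and Tlr13, which for Tlr13 nearly touch at 115.28 and 114.95 TPM.

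**Figure D2:**
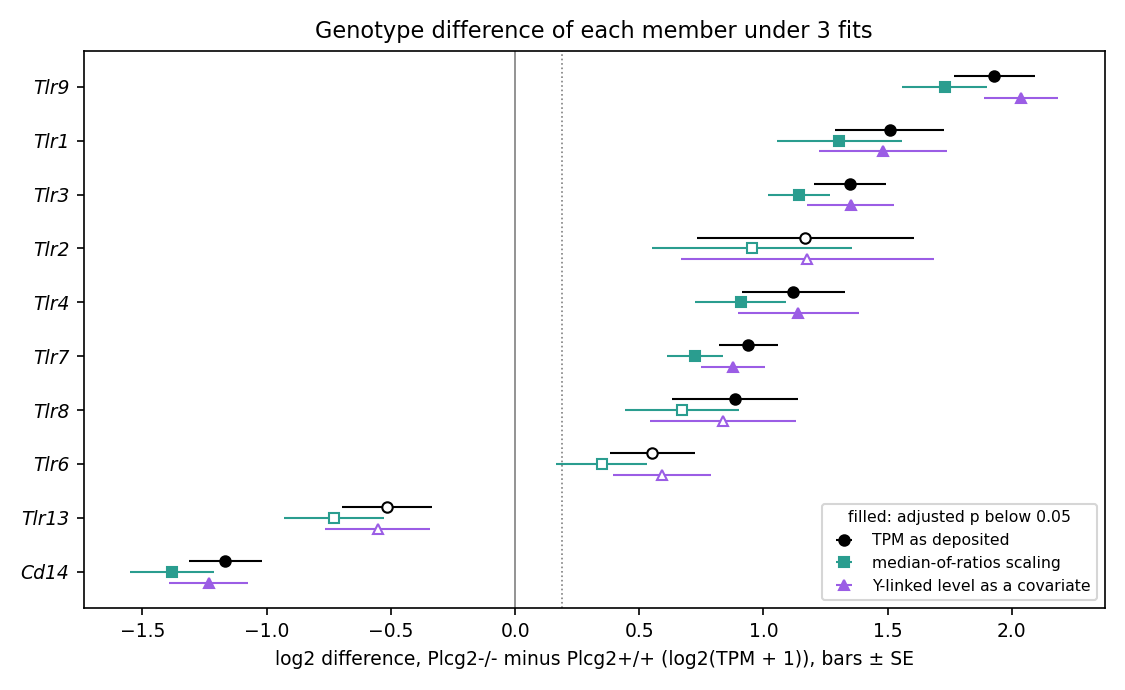
Log2 difference ± SE of each member, Plcg2-/- minus Plcg2+/+, with TPM as deposited, after median-of-ratios scaling and with Y-linked transcripts as a covariate; filled symbols passed an adjusted p of 0.05 and the dotted line marks the all-gene median of 0.19. The side of 0 is the same for all 10 genes under the 3 fits, and Tlr8 is filled only for the TPM as deposited.

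Among the surface receptors, Tlr1 and Tlr4 were higher in Plcg2-/- microglia, Tlr2 and Tlr6 did not pass the test, and Cd14 was lower. Tlr1 and Tlr6, which encode the alternative partners of TLR2, are neighbours on chromosome 5 of GRCm38, on the minus strand, with Tlr1 at chr5:64924679-64933563 and Tlr6 at chr5:64952031-64960097. Both have a single coding exon in their longest coding transcript, of 2385 coding bases for Tlr1 and 2418 for Tlr6. Of windows of 31 bases along the GENCODE M21 transcripts, 20.0% of those of Tlr1 and 16.6% of those of Tlr6 also occur in transcripts of other genes, 607 of them in each other. The longest identical coding stretch spans 229 bases, printed because reads inside it cannot be assigned to 1 of the pair by sequence. It lies at chr5:64925537-64925765 in Tlr1 and chr5:64953828-64954056 in Tlr6, both in GRCm38 on the minus strand, read 5′ to 3′ with no part marked.
Tlr1 and Tlr6 shared coding stretch: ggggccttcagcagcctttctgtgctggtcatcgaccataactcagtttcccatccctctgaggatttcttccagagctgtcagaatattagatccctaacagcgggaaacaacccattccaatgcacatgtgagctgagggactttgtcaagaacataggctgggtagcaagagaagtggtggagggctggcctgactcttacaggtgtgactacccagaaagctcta
The levels of Tlr1 and Tlr6 are therefore estimates that depend on how the quantifier divided shared reads, while 0 windows of Tlr2 and Cd14 and 37 of 5547 of Tlr4 were shared.

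Tlr1 was at 8.53, 11.1 and 7.26 TPM in Plcg2+/+ libraries 1 to 3 and at 24.1, 36.1 and 22.5 TPM in Plcg2-/- libraries 1 to 3. Groups did not overlap, and the highest value in each genotype was that of replicate 2. The mean rose from 8.95 ± 1.94 to 27.6 ± 7.47 TPM (SD, n = 3), 3.08-fold, a log2 difference of 1.51 ± 0.22 (SE; limma, adjusted p = 0.00608). For its neighbour the spread was wider relative to the difference. Tlr6 was at 12.9, 17.5 and 12.2 TPM in Plcg2+/+ and 21.3, 18.2 and 24.0 TPM in Plcg2-/- libraries. Plcg2+/+ 2 and Plcg2-/- 2 lay close together, and the log2 difference of 0.55 ± 0.17 (SE) was not called (limma, adjusted p = 0.0608), though without Plcg2+/+ 2 it was (adjusted p = 0.0445). The ratio of Tlr1 to Tlr6 was 0.660, 0.632 and 0.596 in Plcg2+/+ and 1.13, 1.98 and 0.935 in Plcg2-/- libraries, so Tlr6 had the higher level of the pair in every Plcg2+/+ library and in Plcg2-/- 3.

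Tlr2, at chr3:83836272-83841767 on the minus strand of GRCm38, encodes the shared partner of both and varied most of the members among Plcg2+/+ libraries. Its level was 156, 70.4 and 267 TPM in Plcg2+/+ and 366, 287 and 322 TPM in Plcg2-/- libraries. The groups did not overlap, but Plcg2+/+ 3 stood near the lowest Plcg2-/- library, and the coefficient of variation was 59.9% in Plcg2+/+ and 12.1% in Plcg2-/- libraries. Means were 165 ± 98.6 and 325 ± 39.4 TPM (SD, n = 3), and the log2 difference of 1.17 ± 0.44 (SE) was not called (limma, adjusted p = 0.0993). This outcome rested on 1 library, since without Plcg2+/+ 3 the difference was 1.61 and passed the test (limma, adjusted p = 0.0273). By replicate number the differences were 1.22, 2.01 and 0.27.

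Tlr4, the lipopolysaccharide receptor gene at chr4:66827584-66930284 on the plus strand, and Cd14, its co-receptor gene at chr18:36725067-36726798 on the minus strand, moved in opposite directions. Tlr4 was at 29.6, 24.9 and 28.6 TPM in Plcg2+/+ and 70.3, 43.9 and 74.1 TPM in Plcg2-/- libraries. Every Plcg2-/- value exceeded every Plcg2+/+ value, with Plcg2-/- 2 the lowest of its group. The mean rose from 27.7 ± 2.48 to 62.7 ± 16.4 TPM (SD, n = 3), 2.27-fold, a log2 difference of 1.12 ± 0.21 (SE; limma, adjusted p = 0.0135). Tlr4 lost its call without Plcg2+/+ 2, Plcg2-/- 1 or Plcg2-/- 3, where limma's adjusted p was 0.0523, 0.0689 and 0.0524. Cd14 was at 309, 291 and 259 TPM in Plcg2+/+ and 116, 152 and 115 TPM in Plcg2-/- libraries. These groups lay far apart, the lowest Plcg2+/+ library standing over 100 TPM above the highest Plcg2-/- library. The mean fell from 287 ± 25.2 to 128 ± 21.04 TPM (SD, n = 3), 2.24-fold, a log2 difference of -1.17 ± 0.15 (SE; limma, adjusted p = 0.00342). Cd14 transcripts outnumbered those of Tlr4 by 10.5, 11.7 and 9.07 to 1 in Plcg2+/+ libraries and by 1.65, 3.47 and 1.56 to 1 in Plcg2-/- libraries.

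Among the endosomal receptors, Tlr3, Tlr7, Tlr8 and Tlr9 were higher in Plcg2-/- microglia, and Tlr13 had lower values that did not pass the test. Their ligands are nucleic acids, so they sense what the cell has taken up rather than what meets its surface.

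Promoter windows of 250 bases before to 50 after an annotated start were matched for 7 of the 10 members in RefSeq (GRCm38.p6). Those of Tlr9, Tlr3, Tlr8 and Tlr13 are shown because Tlr9 and Tlr3 had the largest rises among endosomal members, while Tlr8 and Tlr13, both on the X chromosome, had differences on opposite sides of 0. Capitals mark matches on either strand to the PU.1 core GAGGAA, the AP-1 site TGANTCA, the interferon-stimulated response element GAAANNGAA and the kappaB consensus. PU.1 is the lineage factor of macrophages, and the other motifs are bound by factors that act downstream of Toll-like receptors. Each sequence is read 5′ to 3′ on the gene's strand. The Tlr9 window is chr9:106222348-106222647 on the plus strand, that of Tlr3 is chr8:45410331-45410630 on the minus strand, that of Tlr8 is chrX:167264280-167264579 on the minus strand, and that of Tlr13 is chrX:106143025-106143324 on the plus strand.
Tlr9 promoter window: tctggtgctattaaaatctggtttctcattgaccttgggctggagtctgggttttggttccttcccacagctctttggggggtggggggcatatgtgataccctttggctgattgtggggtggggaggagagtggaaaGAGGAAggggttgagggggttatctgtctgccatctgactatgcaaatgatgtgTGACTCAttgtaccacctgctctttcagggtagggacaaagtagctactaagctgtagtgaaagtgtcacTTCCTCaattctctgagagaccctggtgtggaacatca
Tlr3 promoter window: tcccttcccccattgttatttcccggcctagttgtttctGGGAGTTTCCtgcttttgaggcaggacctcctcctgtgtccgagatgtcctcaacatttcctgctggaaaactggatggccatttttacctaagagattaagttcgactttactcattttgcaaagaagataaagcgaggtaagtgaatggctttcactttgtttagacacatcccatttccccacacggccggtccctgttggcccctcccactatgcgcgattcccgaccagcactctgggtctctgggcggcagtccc
Tlr8 promoter window: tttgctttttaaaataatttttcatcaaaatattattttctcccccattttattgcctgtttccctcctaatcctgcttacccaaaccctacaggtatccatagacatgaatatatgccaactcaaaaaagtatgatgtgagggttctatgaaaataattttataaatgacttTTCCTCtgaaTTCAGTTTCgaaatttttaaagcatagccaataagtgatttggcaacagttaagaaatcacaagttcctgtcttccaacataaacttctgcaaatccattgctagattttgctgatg
Tlr13 promoter window: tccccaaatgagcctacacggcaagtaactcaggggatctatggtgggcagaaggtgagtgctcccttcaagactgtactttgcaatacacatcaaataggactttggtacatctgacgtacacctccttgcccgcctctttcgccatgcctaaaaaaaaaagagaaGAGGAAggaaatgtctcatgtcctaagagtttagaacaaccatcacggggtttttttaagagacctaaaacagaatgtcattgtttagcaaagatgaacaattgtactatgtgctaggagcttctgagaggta
The Tlr9 window held 2 PU.1 cores and 1 AP-1 match, that of Tlr3 held 1 kappaB match, that of Tlr8 held 1 PU.1 core and 1 interferon-stimulated response element, and that of Tlr13 held 1 PU.1 core. None of the marked matches overlap in these windows. Among the windows not shown, that of Tlr2 held 3 kappaB matches, some of them overlapping. The Tlr6 window at chr5:64959117-64959416 held 2 overlapping interferon-stimulated response elements, and the Tlr1 window at chr5:64933509-64933808 held 1 PU.1 core. A further window of each of Tlr6 and Tlr1 held no match. Of 32851 windows of the same length, 28.3% held the PU.1 core, 7.81% the AP-1 site, 8.56% the interferon-stimulated response element and 4.51% the kappaB consensus. A match describes letters, not binding.

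Tlr9, the receptor gene for unmethylated CpG DNA at chr9:106222598-106226883 on the plus strand, had the largest rise of the 10 members and the lowest level in Plcg2+/+ microglia. It was at 5.71, 7.17 and 6.32 TPM in Plcg2+/+ and 33.0, 26.4 and 22.8 TPM in Plcg2-/- libraries. The groups lay well apart. The mean rose from 6.40 ± 0.738 to 27.4 ± 5.18 TPM (SD, n = 3), 4.28-fold, a log2 difference of 1.93 ± 0.16 (SE; limma, adjusted p = 0.00104). Tlr3, the gene of the receptor for double-stranded RNA at chr8:45395665-45411080 on the minus strand, signals through the adaptor TRIF rather than MyD88. Its level was 12.4, 10.6 and 11.9 TPM in Plcg2+/+ and 33.8, 25.7 and 34.8 TPM in Plcg2-/- libraries. The 3 Plcg2+/+ values were close to one another, and all Plcg2-/- values lay above them. The mean rose from 11.6 ± 0.911 to 31.4 ± 4.99 TPM (SD, n = 3), 2.70-fold, a log2 difference of 1.35 ± 0.15 (SE; limma, adjusted p = 0.00201). Of the Tlr3 windows of 31 bases 6.10% are complementary to the overlapping antisense gene Gm45542, which was listed at 0 in 5 libraries and at 0.326 TPM in Plcg2-/- 3.

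Tlr7, Tlr8 and Tlr13 lie on the X chromosome, at chrX:167304929-167330558 and chrX:167242696-167264329 on the minus strand and chrX:106143204-106160493 on the plus strand. Tlr7, a receptor gene for single-stranded RNA, was at 148, 121 and 127 TPM in Plcg2+/+ and 246, 243 and 269.5 TPM in Plcg2-/- libraries. The groups lay far apart, the mean rose from 132 ± 14.3 to 253 ± 14.5 TPM (SD, n = 3), and the log2 difference was 0.94 ± 0.12 (SE; limma, adjusted p = 0.00346). Tlr8, its close relative, was at 56.7, 38.9 and 46.5 TPM in Plcg2+/+ and 95.9, 60.4 and 115 TPM in Plcg2-/- libraries. Plcg2-/- 2 stood just above the highest Plcg2+/+ library, and the log2 difference of 0.89 ± 0.25 (SE) lay at the threshold (limma, adjusted p = 0.0492). It lost its call when any library other than Plcg2-/- 2 was left out (adjusted p = 0.0828 to 0.168) and after median-of-ratios scaling (adjusted p = 0.0973). Tlr13, a receptor gene for bacterial ribosomal RNA, was at 161, 181 and 115 TPM in Plcg2+/+ and 103, 96.1 and 115 TPM in Plcg2-/- libraries. Plcg2+/+ 3 and Plcg2-/- 3 nearly coincided, and the log2 difference of -0.52 ± 0.18 (SE) was not called (limma, adjusted p = 0.0847), though without Plcg2+/+ 3 it was -0.70 and passed (adjusted p = 0.0191). By replicate number the Tlr13 differences were -0.64, -0.90 and -0.0040.

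The X-linked genes were also compared with the sex-linked transcripts. Tlr7 was at 148 TPM in Plcg2+/+ 1 and at 243 and 269.5 TPM in Plcg2-/- 2 and 3, the 3 libraries with Xist and with Y-linked transcripts near 0. In the same libraries Tlr8 was at 56.7 against 60.4 and 115 TPM, and Tlr13 at 161 against 96.1 and 115 TPM. With the summed Y-linked level as a covariate the log2 difference was 0.88 for Tlr7 (limma, adjusted p = 0.0157), 0.84 for Tlr8 (adjusted p = 0.118) and -0.55 for Tlr13 (adjusted p = 0.139). All 3 directions were the same in these 3 libraries alone. This was fixed in advance, because the genotypes overlapped for none of the 3 genes. With a single Plcg2+/+ library, these libraries give no spread for that genotype. Both members of the autosomal pair Tlr3 and Tlr9 kept their calls with the covariate (adjusted p = 0.0113 and 0.00366).

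**Figure D3:**
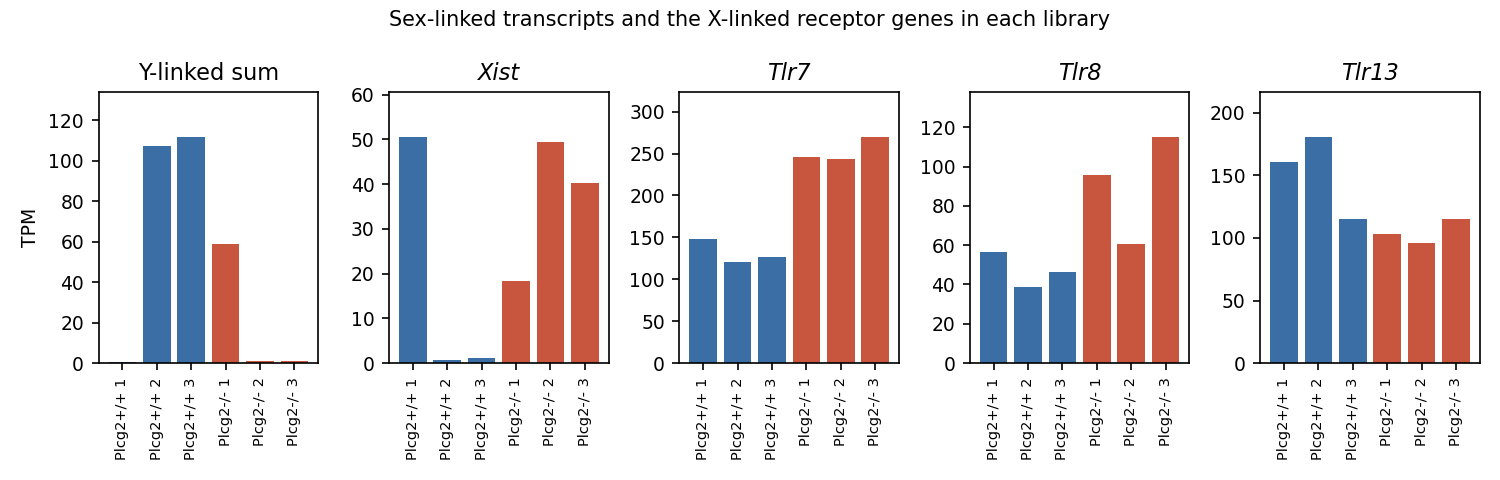
TPM in each library (bars, axes from 0) of the sum of 4 Y-linked genes, Xist and the 3 X-linked members, in Plcg2+/+ (blue) and Plcg2-/- (red). Tlr7 is higher in all red bars, including Plcg2-/- 2 and 3 against Plcg2+/+ 1, which have Y-linked sums of 0.783, 0.994 and 0.371 TPM.

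Set in order of level, Cd14 led in Plcg2+/+ microglia, followed by Tlr2, Tlr13, Tlr7, Tlr8, Tlr4, Tlr6, Tlr3, Tlr1 and Tlr9. The ranges of neighbours overlapped from Cd14 down to Tlr7 and from Tlr6 down to Tlr1, and were separate elsewhere. In Plcg2-/- microglia the order was Tlr2, Tlr7, Cd14, Tlr13, Tlr8, Tlr4, Tlr3, Tlr1, Tlr9 and Tlr6, with overlapping ranges from Tlr13 to Tlr4 and from Tlr3 to Tlr6. Tlr2 and Tlr7 thus stood above Cd14 without overlap in Plcg2-/- libraries. The ratio of Tlr7 to Tlr13 was 0.918, 0.668 and 1.098 in Plcg2+/+ and 2.38, 2.53 and 2.34 in Plcg2-/- libraries. Tlr13 took 27.3%, 37.5% and 18.5% of the summed TPM of the 9 receptors in Plcg2+/+ and 10.4%, 11.5% and 11.5% in Plcg2-/- libraries. Summed surface receptors (Tlr1, Tlr2, Tlr4 and Tlr6) stood at 207, 124 and 315 TPM in Plcg2+/+ and 481, 385 and 443 TPM in Plcg2-/- libraries, most of it Tlr2. Summed endosomal receptors stood at 384, 358 and 307 TPM against 511, 452 and 557 TPM. Both sums were higher in every Plcg2-/- library than in any Plcg2+/+ library, a description with no test. The surface share of the total was 35.1%, 25.7% and 50.7% in Plcg2+/+ and 48.5%, 46.0% and 44.3% in Plcg2-/- libraries, so the groups overlapped. The median log2 difference was 1.14 for the 4 surface receptors, of which 2 were called higher, and 0.94 for the 5 endosomal receptors, of which 4 were called higher; the difference between the classes was not tested.

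The remaining Toll-like receptor genes of the table were below the filter and were not tested. Tlr5, the flagellin receptor gene, had at most 0.0775 TPM. Tlr11 stood at 0.0541, 0 and 0.0509 TPM in Plcg2+/+ and 1.14, 0.165 and 0.816 TPM in Plcg2-/- libraries, and Tlr12 at 0.0746, 0.0636 and 0.0238 against 1.06, 0.248 and 0.608 TPM. Levels of both were thus low everywhere, with the higher values in the Plcg2-/- libraries.

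For each called member, genes with the most similar profile were found by the root mean square difference of centred log2(TPM + 1) values over the 6 libraries, of which the genotype difference is a large part. The nearest gene was Fchsd2 for Tlr1 (0.11), Fam114a1 for Tlr4 (0.073) and Tmc6 for Cd14 (0.083). It was Fam49a for Tlr3 (0.066), Rragd for Tlr7 (0.043), Sik2 for Tlr8 (0.11) and Ciita for Tlr9 (0.12). The second nearest were Rapsn, Ids, Sema4d, Enah, Ccdc137, Fam114a1 and Ifi214 in the same order, so Fam114a1 came up for both Tlr4 and Tlr8.

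The other genes of the pathway were counted by role. The counts below stand beside 15.6% of all tested genes called higher and 5.31% called lower, with an all-gene median of 0.19. Counts or ranges over all genes under the other settings are given in the last section. Of 5 co-receptor and ligand transfer genes, 1 was called higher and 1 lower, with a median difference of 0.15. Ly86, which encodes MD-1, the partner of the TLR4-like protein CD180, rose from 61.9 ± 6.49 to 210.2 ± 47.3 TPM (SD, n = 3), a log2 difference of 1.73 ± 0.19 (SE; limma, adjusted p = 0.00198). Cd180 itself went from 109 ± 26.4 to 155 ± 17.6 TPM and was not called (limma, adjusted p = 0.104), but was with replicate numbers as a block (adjusted p = 0.0398). Cd36, a scavenger receptor that helps TLR2 with TLR6, fell from 722 ± 222 to 107 ± 23.9 TPM, a log2 difference of -2.71 ± 0.28 (SE; limma, adjusted p = 0.00166). Ly96, which encodes MD-2, the lipopolysaccharide-binding subunit of the TLR4 complex, was 39.2 ± 3.48 and 43.8 ± 5.66 TPM and was not called (limma, adjusted p = 0.439). Lbp, the serum lipopolysaccharide transfer protein, was 1.73 ± 0.987 and 0.589 ± 0.357 TPM and was not called (limma, adjusted p = 0.173). The median of the list turned to -0.059 with median-of-ratios factors and to -0.11 with quantile normalization, and it was 0.086, 0.25 and 0.066 when Plcg2+/+ 2, Plcg2-/- 1 or Plcg2-/- 3 was left out.

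Of 12 tested chaperone, trafficking and ligand processing genes, 3 were called higher and 1 lower, with a median of 0.14. Unc93b1, the chaperone of the endosomal receptors, was 595 ± 54.9 and 737 ± 46.0 TPM and was not called (limma, adjusted p = 0.115). Cnpy3, a folding factor of several Toll-like receptors, rose by 0.69 ± 0.12 (adjusted p = 0.00950), and its partner chaperone Hsp90b1, known as gp96, fell by 0.60 ± 0.12 (limma, adjusted p = 0.0163). Pld4, a lysosomal exonuclease that degrades the nucleic acid ligands of endosomal receptors, rose by 0.85 ± 0.16 (adjusted p = 0.0147), and Ap3b1, a subunit of the AP-3 sorting adaptor, rose by 0.55 ± 0.12 (adjusted p = 0.0229). Without Plcg2-/- 1 this list had 1 higher and 0 lower, without Plcg2+/+ 1 it had 1 and 1, and with median-of-ratios factors 2 and 2. The median turned to -0.074 with those factors and to -0.045 with quantile normalization, and it was 0.068 when Plcg2+/+ 1 was left out and 0.024, 0.033 and 0.23 when Plcg2-/- 1, 2 or 3 was.

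Of 21 adaptor and kinase genes, 6 were called higher and 1 lower, with a median of 0.36. For 14 all Plcg2-/- values lay above all Plcg2+/+ values, a pattern seen in 32.4% of all tested genes. Myd88, the adaptor of all these receptors but TLR3, rose from 49.7 ± 11.8 to 101 ± 15.5 TPM (SD, n = 3; limma, adjusted p = 0.0153). Pik3ap1, which encodes the adaptor BCAP, rose by 0.74 ± 0.10 (adjusted p = 0.00408) and the kinase gene Ripk1 by 0.84 ± 0.15 (limma, adjusted p = 0.0110). Irak2, a kinase of the MyD88 complex, fell by 0.84 ± 0.13 (limma, adjusted p = 0.00687). Ticam1, which encodes TRIF, was 12.5 ± 0.513 and 13.6 ± 0.0950 TPM and was not called (limma, adjusted p = 0.440). The number called higher in this list moved with the libraries used: it was 2, 3, 1 and 2 without Plcg2+/+ 1, Plcg2+/+ 2, Plcg2-/- 1 and Plcg2-/- 3, and 4 after median-of-ratios scaling, which put the median at 0.15.

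Of 10 tested genes listed as negative regulators, 4 were called higher and 1 lower, with a median of 0.58. Whether each of them, Peli1 included, inhibits the pathway in these cells was not tested. Socs1, an inhibitor of cytokine and interferon signalling, rose from 1.37 ± 0.254 to 6.24 ± 1.73 TPM (SD, n = 3; limma, adjusted p = 0.00556). Peli1, an E3 ubiquitin ligase, rose by 1.23 ± 0.16 (adjusted p = 0.00428) and the deubiquitinase gene Cyld by 0.69 ± 0.14 (limma, adjusted p = 0.0192). Tnfaip3, which encodes the NF-kappaB inhibitor A20, moved the other way, from 19.8 ± 3.39 to 8.63 ± 0.879 TPM, a fall of 1.11 ± 0.15 (SE; limma, adjusted p = 0.00482). Without Plcg2+/+ 1, Plcg2+/+ 2, Plcg2-/- 1 or Plcg2-/- 3 this list had 2 higher and 1 lower, without Plcg2+/+ 3 it had 5 and 2, and with median-of-ratios factors 3 and 2. The median was 0.37 both with those factors and without Plcg2+/+ 2.

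Of 7 transcription factors activated by the receptors, 4 were called higher and 0 lower, with a median of 0.48. Irf7, the factor of interferon genes downstream of TLR7 and TLR9, rose from 77.3 ± 34.4 to 472 ± 180 TPM (SD, n = 3), a log2 difference of 2.61 ± 0.40 (SE; limma, adjusted p = 0.00671). Differences of the other called factors were smaller, at 0.62 ± 0.10 for Irf5 (adjusted p = 0.00953), 0.56 ± 0.12 for Nfkb1 (adjusted p = 0.0222) and 0.48 ± 0.12 for Rela (limma, adjusted p = 0.0328). After median-of-ratios scaling Irf7 alone of the list was called and the median was 0.27, and 2 were called without Plcg2+/+ 1, Plcg2-/- 1 or Plcg2-/- 3.

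Of 20 response genes 13 were tested, of which 5 were called higher and 0 lower, with a median of 0.70. Cxcl10, an interferon-induced chemokine gene, rose from 2.92 ± 1.26 to 145 ± 46.9 TPM (SD, n = 3), a log2 difference of 5.23 ± 0.31 (SE; limma, adjusted p = 0.000717). Cd40, a co-stimulatory receptor gene, rose by 2.37 ± 0.21 (adjusted p = 0.00127), Ccl5, a chemokine gene, by 3.01 ± 0.64 (adjusted p = 0.0205), Marcksl1 by 1.81 ± 0.30 (adjusted p = 0.00948) and Il1b by 1.94 ± 0.50 (limma, adjusted p = 0.0361). The other 8 tested response genes were not called. Among those, Tnf was 27.4 ± 7.74 and 27.5 ± 5.66 TPM (limma, adjusted p = 0.950). Il6, Il12b, Il10, Ifnb1, Cxcl1, Ptgs2 and Nos2 had means over all libraries below 1 TPM and were not tested. At these low levels Il6, Il10, Ifnb1, Cxcl1 and Nos2 had all Plcg2-/- values above all Plcg2+/+ values, while Il12b and Ptgs2 overlapped. The share of all genes below the filter with that pattern was not computed. Among the 13 tested response genes 6 had it and 7 overlapped, beside 32.4% of all tested genes with the pattern. Ifnb1 was at 0, 0.199 and 0.144 TPM in Plcg2+/+ and 1.92, 2.90 and 0.652 TPM in Plcg2-/- libraries. Without Plcg2-/- 1 or Plcg2-/- 2 this list had 3 higher. The median was 0.46 without Plcg2+/+ 1, 0.44 without Plcg2-/- 2 and 0.41 with quantile normalization.

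**Figure D4:**
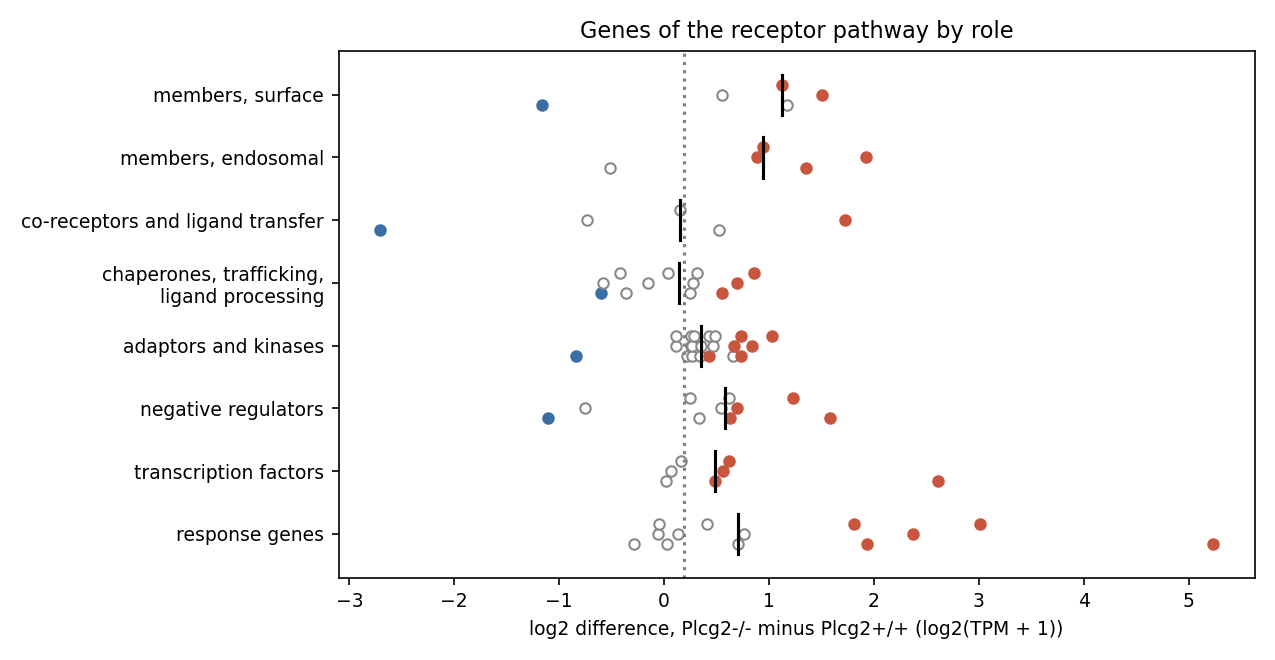
Log2 difference, Plcg2-/- minus Plcg2+/+, of each tested gene by role; red and blue points passed an adjusted p of 0.05 (higher, lower), open ones did not, black bars are list medians and the dotted line is the all-gene median of 0.19. The surface and endosomal members have medians of 1.12 (with Cd14) and 0.94, and the response genes spread furthest, to 5.23 for Cxcl10.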

How the data were processed

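RNA of 6 libraries was measured by polyA-selected sequencing, as paired reads of 150 bp per the labels' protocols. The values the authors deposited are TPM, which sum to 1000000 in each library and therefore carry no depth, so that precision can be read only from the replicates. The submitters' processing notes name the build GRCm38.p6 and the tools R 4.0.4, DESeq2 1.30.1 and Salmon 1.3.0, with no role for each. Genotypes and replicate numbers come from the sample titles.

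Genes averaging 1 TPM or more, 12652 in number, were compared between genotypes as log2(TPM + 1), using limma 3.58.1 under R 4.3.3 (two-sided, mean-dependent prior variance, no block, 4 residual and 2.97 prior degrees of freedom), with Benjamini-Hochberg adjustment over all genes tested. The pseudocount understates changes of low genes. The fit was checked on simulated data. The members, gene lists and motifs were chosen with earlier results of these data known. Besides the members and Plcg2, up to 4 genes per pathway list with the smallest p were named, and the 2 most similar genes per called member. Other pathway genes named (Ly96, Unc93b1, Ticam1, Tnf and Il1b) were chosen after their values were seen. Of the listed symbols, Tasl was not matched and not used. Positions and transcript windows come from GENCODE M21. Same-numbered libraries deviated together from their genotype means (correlations of 0.295, 0.193 and 0.147 over tested genes, each above 0.1), so the numbers were held to pair the samples. All differences and p-values are nevertheless from the fit without a block unless the block is named, since the labels do not say what a number marks. The alternatives were other pseudocounts, filters, scalings and prior variances, the pairs as a block, a Y-linked covariate and libraries left out.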

Additional observations from a re-analysis of the deposited data

How the results depend on the processing

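The 10 members kept their direction under all 22 alternatives. For most alternatives this was fixed in advance, because no member's groups overlapped. Leaving out libraries, or changing the pseudocount, filter, prior variance or block alone, could not turn a direction. Only other scalings and the Y-linked covariate could. Tlr1, Tlr3, Tlr7, Tlr9 and Cd14 kept their calls in 20 of the 22 alternatives, Tlr4 in 16 and Tlr8 in only 7. Tlr2, Tlr6 and Tlr13, not called in the main fit, gained a call in 1, 3 and 3 of them. Over all tested genes, 1226 were called higher with no filter on low values, 975 with median-of-ratios scaling (993 lower), 959 with quantile normalization (1031 lower, and 2 members lower), 1189 with mitochondrially encoded genes left out of TPM, 1104 with the replicate block and median-of-ratios scaling (1127 lower), and 941 with the Y-linked covariate (411 lower). Leaving out 1 library gave 559 to 2106 genes higher and 276 to 644 lower, and 4 to 6 members higher and 1 to 2 lower. Without both libraries numbered 1 limma called 71 genes higher and 35 lower, with 1786 and 714 at an unadjusted p under 0.05, and 0 members either way. Without both numbered 2 it called 983 and 351, and without both numbered 3 it called 507 and 275, with 2 members lower. In the 3 libraries with Y-linked transcripts near 0, a choice made after seeing the data, limma called 0 genes and 0 members either way, against 1507 genes higher and 627 lower at an unadjusted p under 0.05, and Lbp turned to 0.0896 with no call. With 1 Plcg2+/+ library there, its spread is assumed to be that of the other group. The replicate block alone changed the call of no member and, of the named genes, only that of Cd180, and it gave 2483 genes higher and 815 lower. Of the single-gene results 617 held their direction and call, 141 lost a call and 8 gained one. The cause of these changes was not tested. TPM keeps no depth, so what depth limits is unknown for the lowest genes.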
